A study of Narcissus tazetta subsp. chinensis with 8 samples.

Results

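The genes described here are 30 assembled genes whose descriptions name enzymes or regulators of starch, sucrose, glycolysis, pyruvate, malate or citrate, out of 81096 listed genes. The flowers were those of the scented narcissus cultivar Jinzhanyintai (Narcissus tazetta var. chinensis). They were found by searching the Swiss-Prot and nr descriptions for 14 words or phrases. The search matched 33 genes, of which 3 were left out by name. Descriptions exist for 1929 genes, all of which the authors had called as changed between days, so no gene without a day call could become a member. Of the 30 members, 27 stood in the authors' table of called genes for corolla and 9 in that for petal, with 6 in both. The words for starch, hexokinase and enolase found no member.

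RNA was sequenced from 4 groups of 2 libraries each: corolla on day 7, corolla on day 1, petal on day 7 and petal on day 1. All plants were of this cultivar and grew in a plantation under natural conditions, with no treatment named. Day 7 is the full-bloom stage and day 1 the start of flowering, per the labels, which call the 2 libraries of a group biological repeats and leave the number of flowers or plants behind each unstated. A p-value here thus covers the spread among repeats and nothing wider. How corolla and petal were told apart is not stated.

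Petals are organs that draw on sugar made elsewhere. Sucrose arriving from the stem is split by sucrose synthase or invertase, starch laid down in the bud is released by amylases, and the hexoses enter glycolysis, which runs in both the cytosol and the plastid and ends in pyruvate. Pyruvate then feeds the mitochondrion, plastid fatty acid synthesis, amino acids and, in many flowers, scent precursors, while malate and citrate carry carbon and reducing power between compartments.

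The descriptions covered the title words unevenly. Starch was represented by amylases and a debranching enzyme and by no starch synthase. Respiration was hardly represented: no member was described as a mitochondrial enzyme of the citric acid cycle, the pyruvate dehydrogenase and malate dehydrogenase members were described as chloroplastic, and the ATP-citrate synthase member belongs to an enzyme that cleaves citrate in the cytosol. Only 1 member, an invertase, was described as mitochondrial. Another 3, matched by the word pyruvate, belong to the making of auxin by way of indole-3-pyruvate and to none of these pathways. Chloroplastic or plastidial stood in the descriptions of 15 of the 30 members, against 14.3% of all described genes.

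Levels are FPKM, a read density per transcript length and sequencing depth, so values of different genes can be set side by side. Every member was above 0 in all 8 libraries, with values of 0.22 to 5279.7 FPKM resting on 7 to 103767 read counts (median 467.5). Summed counts of the called genes were 1664739 to 3471042 in corolla and 811027 to 1710862 in petal, by library, and 23336 to 29601 genes reached 1 FPKM per library. Repeats correlated at r = 0.956 to 0.979 across genes. In such bulk samples fewer cells of a type and less RNA per cell cannot be told apart.

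Most members were lower at full bloom in both tissues. Because a gene had to be called between days to have a description, its day difference in the tissue that called it is given as a description without a test. In corolla the day 7 libraries lay wholly below the day 1 libraries for 25 members and wholly above for 5, with no overlap in any; of all genes fitted in corolla, 37.1% lay below and 26.5% above in this way. In petal 21 members lay below, 4 above and 5 overlapped, against 33% below and 26% above among all genes fitted there. Most genes fitted had no day call, whereas every member had one, so called genes are the closer comparison. Of the 27 members that the authors called in corolla, 23 were lower on day 7, against 69.1% of all genes called there. Of the 9 called in petal, 8 were lower, against 64.3% of all genes called there. Whether these shares differ was not tested.

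The corolla table, which holds 27 members, was made without the petal libraries, so the petal day difference of its members was tested with limma on log2(FPKM + 1) at an adjusted p of 0.05 over all genes with at least 1 FPKM in 2 libraries. Of 25 that could be tested, 2 rose, 10 fell and 13 did not pass, and 19 had an unadjusted p below 0.05. That is 48%, close to the share in petal among all genes of the corolla table (52.6% of 1531: 14% higher and 38.5% lower) and above that among all genes tested in petal (10.2%: 4.12% higher and 6.05% lower). The 6 members that stood in both tables had also been called in petal by the authors; of the 19 others tested, 2 rose and 5 fell (36.8%, median -0.69). Over all 25 the median log2 difference was -0.95, against -0.76 for the corolla table and -0.05 for all genes. The count rests on few libraries: it was 0 without petal day 7 repeat 1, day 1 repeat 1 or day 1 repeat 2, with 20, 13 and 15 then at an unadjusted p below 0.05, and it was 4 with no filter on low FPKM (sucrose synthase 3, alpha-amylase 3, cytoplasmic aldolase and TAR2, all in both tables).

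Conversely, the 9 members of the petal table were tested in corolla, where 7 fell, 0 rose and 2 did not pass. Of the 3 not also in the corolla table, 1 fell. The share over all 9 is 77.8%, against 73.9% of the petal table (18.7% higher and 55.2% lower) and 21.5% of all genes tested in corolla (6.52% higher and 15% lower). The median was -1.43, against -1.01 for the petal table and -0.06 for all genes. Without corolla day 1 repeat 1 or repeat 2 the count was 0, with 7 and 8 at an unadjusted p below 0.05. The direction in the 2 tissues was the same for 23 of the 25 members of the corolla table (92%) and for 94.3% of all genes of that table, so the shares of calls and of shared directions were near those of the other called genes.

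**Figure D1:**
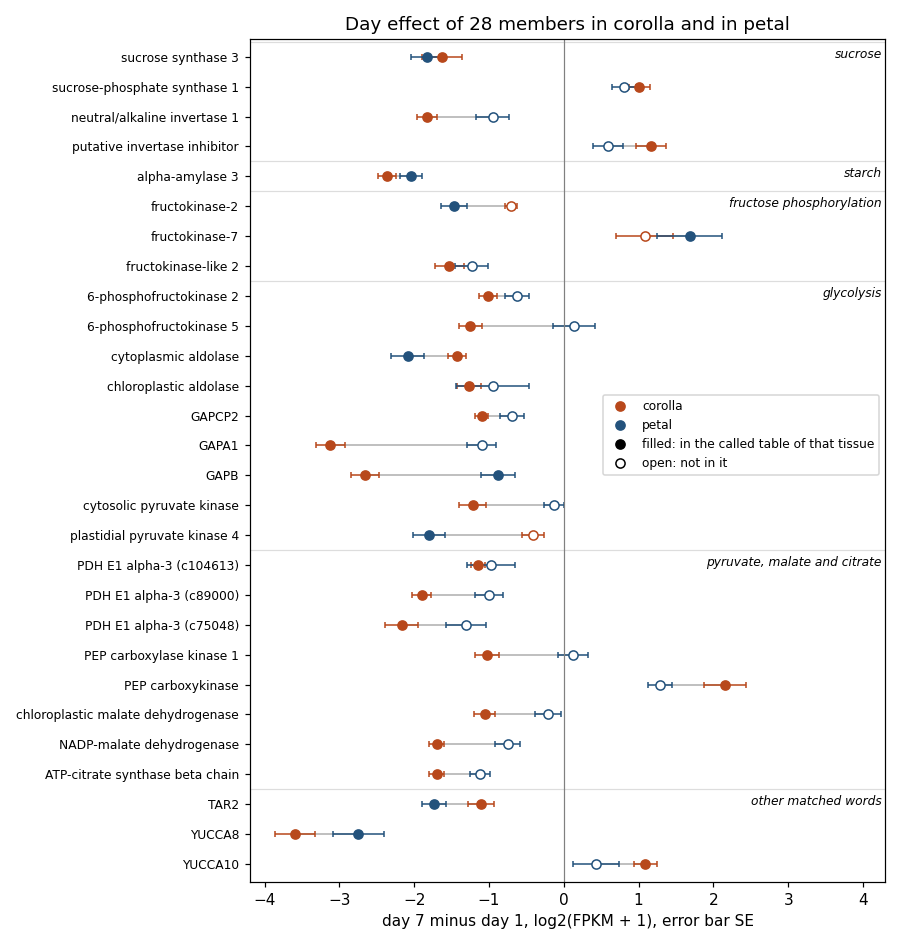
Day 7 minus day 1 on the log2(FPKM + 1) scale (horizontal axis) for the 28 members fitted in both tissues, grouped by role, with corolla in orange, petal in blue and error bars of 1 SE from limma. Filled points are contrasts by which the authors called the gene and open points are ones that had no part in choosing it; most points of both colours lie left of 0, with sucrose-phosphate synthase 1, the invertase inhibitor, fructokinase-7, PEP carboxykinase and YUCCA10 to the right in both tissues.

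A sucrose-cleaving enzyme was lower at full bloom and a sucrose-making enzyme was higher. Sucrose synthase 3 (c95290.graph_c1), which splits sucrose into fructose and UDP-glucose, had 5.07 and 9.32 FPKM in corolla on day 7, against 22.61 and 24.37 on day 1, and 3.4 and 4.63 FPKM in petal on day 7, against 16.8 and 16.54 on day 1. Both day 7 pairs lay well below their day 1 pairs, with log2 differences of -1.63 ± 0.27 SE in corolla and -1.83 ± 0.21 SE in petal. The authors had called it in both tissues, so neither difference is given a test, and the same holds for the other members in both tables.

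Neutral/alkaline invertase 1 (c102877.graph_c0), which hydrolyses sucrose to glucose and fructose, had 16.73 and 16.56 FPKM in corolla on day 7, against 68.91 and 55.11 on day 1. In petal it had 18.28 and 12.47 FPKM on day 7, against 33.19 and 27.3 on day 1. The tissues overlapped on day 7 and stood apart on day 1, when corolla was 2.05 times petal. The petal difference of -0.95 ± 0.22 did not pass (limma adjusted p = 0.0579). It passed with a filter of 5 FPKM (0.0243), but not with TMM scaling (0.0829) or with no filter on low FPKM (0.189). It passed in 3 of the 7 alternatives with all libraries.

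Sucrose-phosphate synthase 1 (c101392.graph_c0), which makes the phosphorylated precursor of sucrose, went the other way. It had 34.24 and 27.68 FPKM in corolla on day 7, against 14.68 and 14.92 on day 1, and 36.85 and 43.45 FPKM in petal on day 7, against 21.05 and 24.16 on day 1. All 4 day 7 libraries were above all 4 day 1 libraries, and it rose in petal (0.80 ± 0.16, limma adjusted p = 0.0402), a call that ended with no filter on low FPKM (0.127). The putative invertase inhibitor (c103125.graph_c0), of a protein family that blocks acid invertases, was also higher on day 7, with 58.59 and 40.81 FPKM in corolla, against 19.52 and 22.99 on day 1. In petal it had 23.57 and 30.47 FPKM on day 7, against 15.66 and 19.43 on day 1, without overlap but with no call (0.59 ± 0.20, limma adjusted p = 0.117).

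The most abundant starch gene was alpha-amylase 3 (c110052.graph_c0), a plastid enzyme that cuts glucan chains internally. It had 6.95 and 7.01 FPKM in corolla on day 7, against 42.98 and 37.37 on day 1, and 10.34 and 9.48 FPKM in petal on day 7, against 46.51 and 41.09 on day 1. The day 7 means were 0.174 times the day 1 mean in corolla and 0.226 times in petal. It stood in both tables, with log2 differences of -2.36 ± 0.12 in corolla and -2.04 ± 0.15 in petal.

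The other starch genes were weak. Isoamylase 1 (c108541.graph_c0), a debranching enzyme that trims growing amylopectin, had 2.38 and 2.19 FPKM in corolla on day 7, against 5.3 and 7.37 on day 1. In petal it stayed between 0.57 and 1.18 FPKM on both days, which overlapped. Beta-amylase 2 (c98049.graph_c0), of the family that releases maltose, did not exceed 1.53 FPKM in any library. Neither reached 1 FPKM in 2 petal libraries, so neither was tested there.

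**Figure D2:**
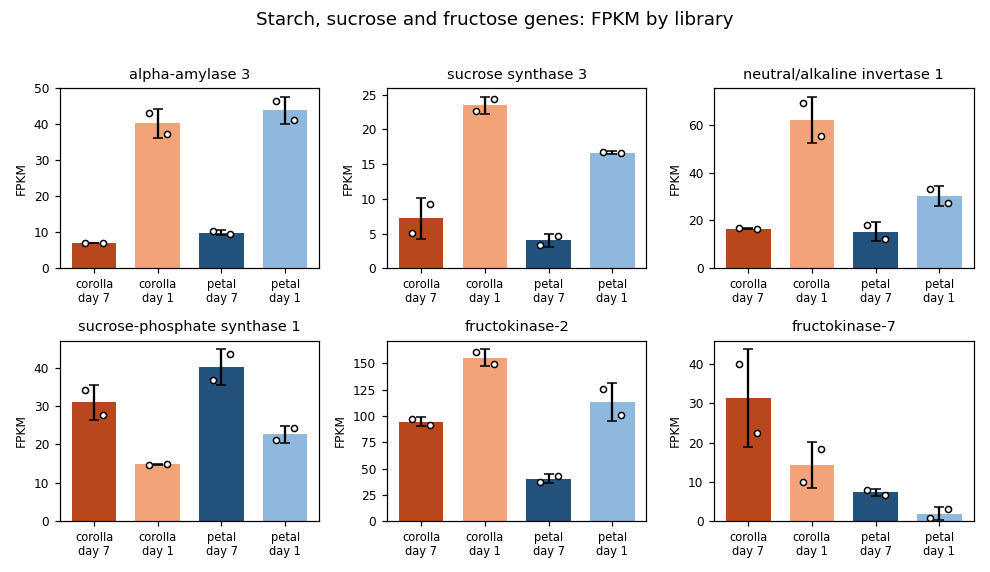
FPKM of 6 starch, sucrose and fructose genes in corolla day 7, corolla day 1, petal day 7 and petal day 1 (vertical axes from 0, each panel with its own scale; bars are means, error bars SD, n = 2, circles single libraries). Alpha-amylase 3, sucrose synthase 3, invertase 1 and fructokinase-2 are lower on day 7 than on day 1 in both tissues, and sucrose-phosphate synthase 1 and fructokinase-7 are higher.

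The fructokinases, which phosphorylate the fructose freed from sucrose, split by gene. Fructokinase-2 (c103831.graph_c0) had 97.44 and 91.72 FPKM in corolla on day 7, against 161.22 and 149.76 on day 1. In petal, whose table admitted it, it had 37.06 and 43.24 FPKM on day 7, against 125.99 and 100.8 on day 1. It fell in corolla (-0.71 ± 0.08, limma adjusted p = 0.00755).

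Fructokinase-7 (c98653.graph_c0) had 40.15 and 22.5 FPKM in corolla on day 7, against 10.05 and 18.49 on day 1. In petal it had 7.99 and 6.72 FPKM on day 7, against 0.69 and 2.98 on day 1. Day 7 was above day 1 without overlap in both tissues, but the repeats spread widely and the corolla difference did not pass (1.08 ± 0.38, limma adjusted p = 0.113). Fructokinase-2 was the more abundant of the pair in every library.

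Fructokinase-like 2 (c100033.graph_c0) is a plastid protein related to fructokinases that, in Arabidopsis, belongs to the plastid transcription machinery. It had 2.85 and 2.61 FPKM in corolla on day 7, against 8.92 and 10.75 on day 1, and 2.06 and 2.04 FPKM in petal on day 7, against 5.99 and 6.33 on day 1. It fell in petal (-1.23 ± 0.22, limma adjusted p = 0.034), though not with no filter on low FPKM (0.0966). It also lay just outside the authors' limit in petal, with an FDR of 0.0104 and a log2 fold change of -1.50 in the authors' deposited table.

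Glycolysis held 9 members. Of the 8 admitted by the corolla table, 2 fell in petal, 0 rose and 6 did not pass, with a median of -0.79. This is 25%, against 52.6% of the corolla table and 10.2% of all genes tested in petal. The 2 were cytoplasmic aldolase and GAPA1. GAPA1 and GAPB were grouped here by their descriptions but belong to the Calvin cycle, as given below. The authors had also called cytoplasmic aldolase in petal, as they had GAPB, which did not pass. Apart from GAPA1, GAPB and cytoplasmic aldolase, no glycolysis member of the corolla table passed in petal. Lowest on day 7 relative to day 1 in petal was cytoplasmic fructose-bisphosphate aldolase (c84730.graph_c0), which splits the 6-carbon sugar into triose phosphates, with 11.27 and 12.67 FPKM in corolla on day 7, against 34.9 and 32.73 on day 1. Petal had 10.86 and 14.5 FPKM on day 7, against 65.34 and 48.99 on day 1. It stood in both tables, with log2 differences of -1.43 ± 0.12 in corolla and -2.09 ± 0.22 in petal, and both day 7 pairs lay below their day 1 pairs.

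The gate of glycolysis, 6-phosphofructokinase, had a pair of members. 6-phosphofructokinase 2 (c101648.graph_c0) had 21.17 and 18.74 FPKM in corolla on day 7, against 43.59 and 38.57 on day 1, and 22.99 and 29.09 FPKM in petal on day 7, against 41.53 and 39.7 on day 1. Day 7 was lower in every library of both tissues, but the petal difference did not pass (-0.63 ± 0.16, limma adjusted p = 0.0683). That difference passed with TMM scaling (0.031), but not with no filter on low FPKM (0.222), and in 4 of the 7 alternatives with all libraries. 6-phosphofructokinase 5 (c106422.graph_c0) had 14.79 and 12.1 FPKM in corolla on day 7, against 36.13 and 30.3 on day 1. In petal its libraries overlapped, with 36.85 and 22.06 FPKM on day 7, against 29.73 and 22.87 on day 1 (0.13 ± 0.28, limma adjusted p = 0.821).

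Pyruvate kinase, the last step of glycolysis, also had a pair, called in different tissues. Cytosolic pyruvate kinase (c106349.graph_c0) had 19.09 and 13.79 FPKM in corolla on day 7, against 41.09 and 37.15 on day 1. Petal had 36.85 and 35.64 FPKM on day 7, against 41.51 and 38.06 on day 1, a small difference that did not pass (-0.13 ± 0.13, limma adjusted p = 0.577). Plastidial pyruvate kinase 4 (c74579.graph_c0), admitted by the petal table, had 8.65 and 12.48 FPKM in petal on day 7, against 40.6 and 36.98 on day 1. In corolla it had 10.33 and 8.61 FPKM on day 7, against 13.44 and 12.28 on day 1, and did not pass (-0.41 ± 0.15, limma adjusted p = 0.128). Whether the day effect of either gene differed between tissues was not tested.

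Glyceraldehyde-3-phosphate dehydrogenase, which oxidises triose phosphate, had 3 plastid members. GAPCP2 (c102591.graph_c0), the plastid enzyme of glycolysis, had 100.21 and 94.69 FPKM in corolla on day 7, against 222.32 and 199.29 on day 1, and 71.92 and 86.16 FPKM in petal on day 7, against 136.47 and 118.91 on day 1. Its petal difference did not pass (-0.69 ± 0.16, limma adjusted p = 0.0543). That difference passed with TMM scaling (0.031), but not with no filter on low FPKM (0.183), and in 4 of the 7 alternatives with all libraries.

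The other 2 belong to the photosynthetic Calvin cycle rather than to glycolysis. GAPA1 (c84469.graph_c0) had 10.03 and 6.79 FPKM in corolla on day 7, against 80.23 and 78.84 on day 1, and 5.07 and 5.18 FPKM in petal on day 7, against 11.3 and 12.98 on day 1. It fell in petal (-1.10 ± 0.19, limma adjusted p = 0.0294), though not with no filter on low FPKM (0.0819). Its partner subunit GAPB (c104757.graph_c0), admitted by both tables, had 10.88 and 7.23 FPKM in corolla on day 7, against 62.16 and 61.1 on day 1 (log2 -2.66 ± 0.19). In petal GAPB had 3.63 and 4.51 FPKM on day 7, against 7.5 and 9.23 on day 1, a smaller difference without overlap (-0.88 ± 0.23).

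Around pyruvate, malate and citrate, 8 members were found, all in the corolla table. In petal 1 rose, 3 fell and 4 did not pass, a share of 50% that is near the 52.6% of the corolla table. The 3 include c89000.graph_c0 and c75048.graph_c0, short assembled genes with the same enzyme name. Whether these are separate genes was not tested, so the share may count a gene more than once. The riser was PEP carboxykinase (c109488.graph_c0), which turns oxaloacetate into phosphoenolpyruvate and lets organic acids flow back towards sugar. It had 589.54 and 470.16 FPKM in corolla on day 7, against 89.51 and 153.19 on day 1, and 456.84 and 514.05 FPKM in petal on day 7, against 187.83 and 209.9 on day 1. Every day 7 library exceeded every day 1 library of either tissue, with ratios of the means of 4.37 in corolla and 2.44 in petal. It rose in petal (1.28 ± 0.16, limma adjusted p = 0.0149), a call that just ended with no filter on low FPKM (0.0535).

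PEP carboxylase kinase 1 (c101715.graph_c1), which phosphorylates PEP carboxylase, the enzyme of the opposite reaction, and relieves its inhibition by malate, had 8.68 and 6.73 FPKM in corolla on day 7, against 16.14 and 17.09 on day 1. Its petal libraries overlapped, with 13.17 and 18.19 FPKM on day 7, against 14.05 and 14.22 on day 1 (0.12 ± 0.20, limma adjusted p = 0.743). It and 6-phosphofructokinase 5 were the 2 of 25 whose fitted direction differed between tissues, and in both the petal difference was smaller than its SE and changed sign when a library was left out.

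**Figure D3:**
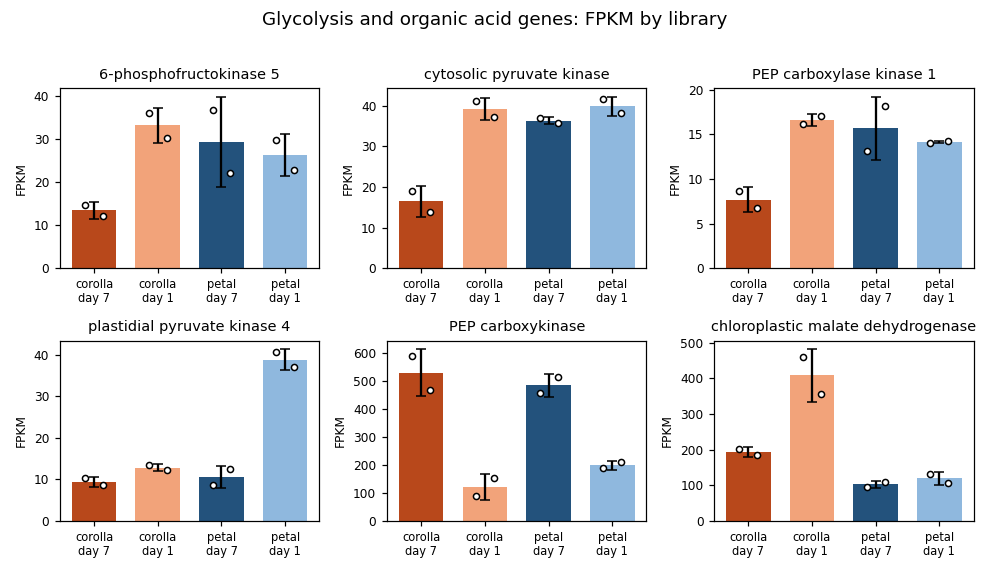
FPKM of 6 genes of glycolysis and organic acid metabolism in corolla day 7, corolla day 1, petal day 7 and petal day 1 (vertical axes from 0, each panel with its own scale; bars are means, error bars SD, n = 2, circles single libraries). 6-phosphofructokinase 5, cytosolic pyruvate kinase and PEP carboxylase kinase 1 are lower on day 7 in corolla with petal days close together, plastidial pyruvate kinase 4 shows the larger day gap in petal, and PEP carboxykinase is higher on day 7 in both.

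Pyruvate dehydrogenase E1 alpha-3, a subunit of the plastid complex that makes acetyl-CoA for fatty acids, was described for 3 assembled genes. The most abundant (c104613.graph_c0) had 905.28 and 905.64 FPKM in corolla on day 7, against 2081.91 and 1947.24 on day 1, and 1141.56 and 1717.8 FPKM in petal on day 7, against 2916.83 and 2588.95 on day 1. Its petal libraries did not overlap between days, but the day 7 repeats lay apart and the difference did not pass (-0.97 ± 0.32, limma adjusted p = 0.114).

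The weaker pair had 8.27 and 7.17 FPKM (c89000.graph_c0) and 2.66 and 2.57 FPKM (c75048.graph_c0) in corolla on day 7, and 32.4 and 30.55 and 12.79 and 18.22 FPKM on day 1, in the same order of genes. Both fell in petal, by log2 -1.0 ± 0.19 (limma adjusted p = 0.036) for c89000.graph_c0 and -1.31 ± 0.27 (limma adjusted p = 0.0426) for c75048.graph_c0. Both calls ended with no filter on low FPKM (0.109 and 0.128), and that of c75048.graph_c0 also with a pseudocount of 0.1 (0.0538). The effective lengths of the 3, 0.53, 0.28 and 0.17 times the median of the called genes, are short, and whether they are separate genes or pieces of the same transcript was not tested; reads could be split between them.

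The beta chain of ATP-citrate synthase (c101700.graph_c0), which supplies cytosolic acetyl-CoA, had 48.36 and 44.23 FPKM in corolla on day 7, against 161.48 and 143.05 on day 1. Petal had 48.81 and 53.96 FPKM on day 7, against 117.61 and 108.4 on day 1, and the gene fell there (-1.12 ± 0.13, limma adjusted p = 0.0138; 0.0501 with no filter on low FPKM). Corolla was 0.901 times petal on day 7 and 1.35 times on day 1, without overlap on either day.

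The malate dehydrogenases, which interconvert malate and oxaloacetate, were both plastid forms. The NADP-dependent form (c95207.graph_c0), which exports reducing power from chloroplasts as malate, had 31.71 and 27.25 FPKM in corolla on day 7, against 97.48 and 98.02 on day 1, and 14.38 and 17.73 FPKM in petal on day 7, against 29.47 and 25.72 on day 1. Its petal difference did not pass (-0.75 ± 0.17, limma adjusted p = 0.0551). That difference passed with TMM scaling (0.0323), but not with no filter on low FPKM (0.172), and in 4 of the 7 alternatives with all libraries. The other chloroplastic form (c100965.graph_c0) had 203.02 and 184.51 FPKM in corolla on day 7, against 460.3 and 356.41 on day 1. In petal its days overlapped, with 95.85 and 109.17 FPKM on day 7, against 132.5 and 106.55 on day 1 (-0.21 ± 0.17, limma adjusted p = 0.453).

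Of the 3 auxin genes, 2 were lower at full bloom in both tissues. TAR2 (c108740.graph_c0), which makes indole-3-pyruvate from tryptophan, had 11.74 and 16.01 FPKM in corolla on day 7, against 31.18 and 30.5 on day 1, and 11.54 and 13.85 FPKM in petal on day 7, against 45.43 and 43.07 on day 1. YUCCA8 (c104193.graph_c1), of the monooxygenase family that turns indole-3-pyruvate into auxin, had 1.55 and 2.28 FPKM in corolla on day 7, against 42.28 and 27.16 on day 1, and 3.07 and 5.9 FPKM in petal on day 7, against 43.55 and 27.35 on day 1. Both stood in both tables, with log2 differences of -1.11 ± 0.17 in corolla and -1.73 ± 0.16 in petal for TAR2, and of -3.59 ± 0.27 in corolla and -2.75 ± 0.34 in petal for YUCCA8. No day 7 library of either gene reached a day 1 library.

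The other, YUCCA10 (c93439.graph_c0), of the same family as YUCCA8, was the most abundant member in corolla on both days, with 4423.16 and 5279.7 FPKM on day 7, against 2107.43 and 2449.65 on day 1. Petal had 856.33 and 1473.57 FPKM on day 7, against 772.7 and 893.41 on day 1, which overlapped (0.43 ± 0.31, limma adjusted p = 0.422). Without the 3 auxin genes, set aside after the data were seen, 10 members passed in petal and 5 in corolla.

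The members nearest the authors' limits show how the choice was made. In the authors' deposited table for corolla, 6-phosphofructokinase 2 and GAPCP2 were just inside at a log2 fold change of -1.0, and chloroplastic malate dehydrogenase at an FDR of 0.00992. Fructokinase-2, outside in corolla, had a log2 fold change of -0.66 and an FDR of 0.107 in the authors' deposited table.

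Corolla and petal were then compared over both days, a contrast at right angles to the day contrasts, although its residual spread is shared with them. The FPKM scale of the 2 tables was set against counts of 248 genes called in both, and depth ratios varied by 5.22% to 10.5% across these genes. Of the 30 members 12 were higher in corolla, 4 lower and 14 did not pass (limma), with a median of 0.13. Isoamylase 1, counted among the 12, reached the 1 FPKM filter through corolla alone, the tissue where it is high. The share, 53.3%, was close to that of all called genes (56.8%: 28.3% higher and 28.5% lower, median -0.03) and above that of all genes tested (22%: 8.78% higher and 13.3% lower, median -0.08). With TMM scaling, which moved the split over all genes from 2323 higher and 3511 lower to 3276 higher and 3032 lower, the members divided into 14 higher and 4 lower.

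Several plastid enzymes were among those higher in corolla. Chloroplastic aldolase (c91330.graph_c0), of the Calvin cycle and plastid glycolysis, had 9.2 and 11.93 FPKM in corolla and 0.62 and 3.04 FPKM in petal on day 7, and 28.57 and 25.08 FPKM in corolla and 3.23 and 4.79 FPKM in petal on day 1. Corolla was above petal on each day without overlap (2.33 ± 0.28, limma adjusted p = 0.000673). GAPB (1.86 ± 0.15, limma adjusted p = 8.14e-05) and GAPA1 (1.61 ± 0.13, limma adjusted p = 9.08e-05) were higher too; for both, corolla over petal was larger on day 1 (7.37 and 6.55 times) than on day 7 (2.22 and 1.64 times), a change that was not tested. The chloroplastic malate dehydrogenases c100965.graph_c0 (1.34 ± 0.12, limma adjusted p = 0.000136) and c95207.graph_c0 (1.32 ± 0.10, limma adjusted p = 8.03e-05) and GAPCP2 (0.51 ± 0.10, limma adjusted p = 0.00644) were higher as well.

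Of the 15 members described as chloroplastic or plastidial, 7 were higher in corolla and 2 lower (60%, median 0.44). The 7 include isoamylase 1, which reached the 1 FPKM filter through corolla alone. Of the other 15, 5 were higher and 2 lower (46.7%, median -0.17). Among all called genes the share was 56.8% (28.3% higher and 28.5% lower). Whether these shares differ was not tested. The 2 lower plastid members were plastidial pyruvate kinase 4 (-0.82 ± 0.13, limma adjusted p = 0.00326), whose petal level stood out on day 1, and pyruvate dehydrogenase E1 alpha-3 c104613.graph_c0 (-0.54 ± 0.15, limma adjusted p = 0.0338). The call of c104613.graph_c0 ended in 6 of the 8 fits that left out a library.

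Green tissue markers moved alongside. The 32 genes of chlorophyll-binding proteins, photosystem subunits and the small subunit of Rubisco summed to 1511 and 1279 FPKM in corolla and 609.4 and 585.5 FPKM in petal on day 7, and to 5719 and 5490 FPKM in corolla and 1561 and 1566 FPKM in petal on day 1. All 32 stood in the corolla table, so their fall in corolla is a description, and 10 stood in the petal table as well. Of 31 tested between tissues 26 were higher in corolla and 2 lower (90.3%, against 56.8% of all called genes), with a median of 1.48. Some of the 26, such as chlorophyll a-b binding protein 40 (c86994.graph_c0), reached the 1 FPKM filter through corolla alone. Of 25 tested in petal 14 fell by day 7 and 0 rose (56%, against 52.6% of the corolla table). The 14 include genes that the authors had also called in petal. Of the 32, 3 were at 0 in a library or not listed for petal. Their part in the plastid members' differences was not tested. A further list held 8 genes whose Swiss-Prot or nr description names pollen, 3 of them in nr alone. They summed to 240.7 and 143.8 FPKM in corolla and 57.0 and 51.4 FPKM in petal on day 7. On day 1 they summed to 129.6 and 186.1 FPKM in corolla and 113 and 91.7 FPKM in petal. Of the 8, 5 were higher in corolla and 2 lower (87.5%, against 56.8% of all called genes), and 1 was at 0 in a library. Among the higher, c53695.graph_c0 reached the 1 FPKM filter through corolla alone. Among the lower, c96500.graph_c0 reached it through petal alone. The part of the 8 genes was not tested either.

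**Figure D4:**
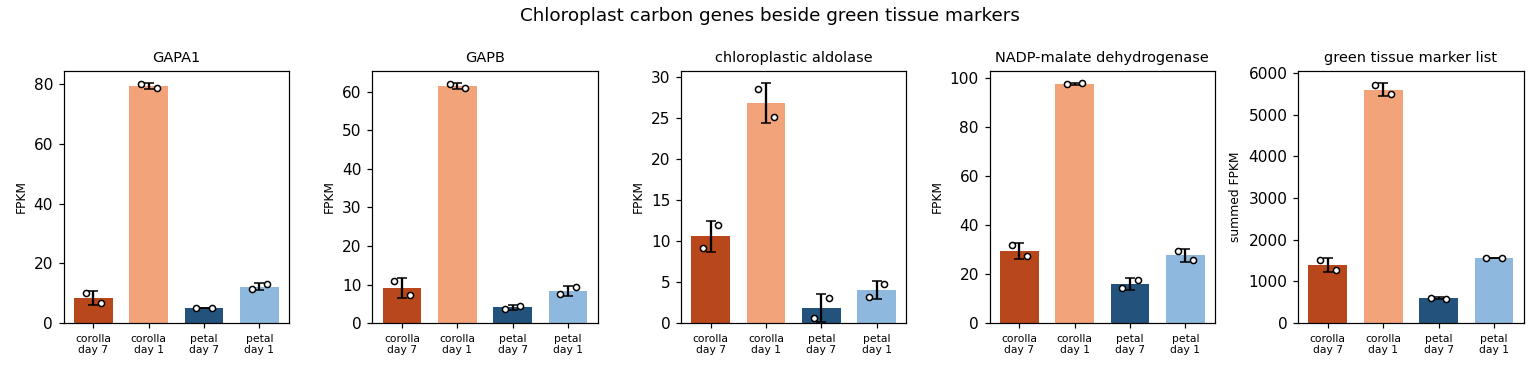
FPKM of GAPA1, GAPB, chloroplastic aldolase and NADP-malate dehydrogenase, and summed FPKM of the green tissue marker list, in corolla day 7, corolla day 1, petal day 7 and petal day 1 (vertical axes from 0, each panel with its own scale; bars are means, error bars SD, n = 2, circles single libraries). In every panel corolla on day 1 is the highest group, and the marker sum is 5719 and 5490 FPKM there, against 1561 and 1566 FPKM in petal on day 1.

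Genes of fructose, starch and sucrose use were also among those higher in corolla. Fructokinase-7 (2.20 ± 0.31, limma adjusted p = 0.00178) and fructokinase-2 (0.84 ± 0.10, limma adjusted p = 0.000705) stood above petal on each day. Isoamylase 1 was 3.66 times petal on day 7 and 7.24 times on day 1, with petal near or below 1 FPKM. YUCCA10 was 4.16 times petal on day 7 and 2.74 times on day 1 (1.78 ± 0.18, limma adjusted p = 0.000339). Invertase 1 (0.57 ± 0.14, limma adjusted p = 0.0219) and the invertase inhibitor (0.56 ± 0.15, limma adjusted p = 0.031) passed with smaller differences, which ended in 3 and 6 of the 8 fits without a library.

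On the petal side were sucrose-phosphate synthase 1 (-0.47 ± 0.11, limma adjusted p = 0.0166), a call lost in 4 of the 8 fits without a library, and cytosolic pyruvate kinase (-0.57 ± 0.11, limma adjusted p = 0.0091). Cytosolic pyruvate kinase differed on day 7, at 0.454 times petal, and overlapped on day 1. Among members that did not pass were alpha-amylase 3 (-0.29 ± 0.10, limma adjusted p = 0.0744), sucrose synthase 3 (0.57 ± 0.18, limma adjusted p = 0.0538, and 0.033 with TMM scaling) and PEP carboxykinase (-0.32 ± 0.17, limma adjusted p = 0.227).

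Within a day, with no test, 13 members lay wholly above petal in corolla on day 7, 12 below and 5 overlapped, where 19.6% and 29.3% of all genes lay above and below. On day 1 20 lay above, 6 below and 4 overlapped, against 24.2% and 35.3% of all genes. These counts share libraries with the day calls that chose the members. Of the 27 members in the corolla table, 23 were called as lower on day 7, which favours high corolla values on day 1. The shares among called genes alone were not computed.

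**Figure D5:**
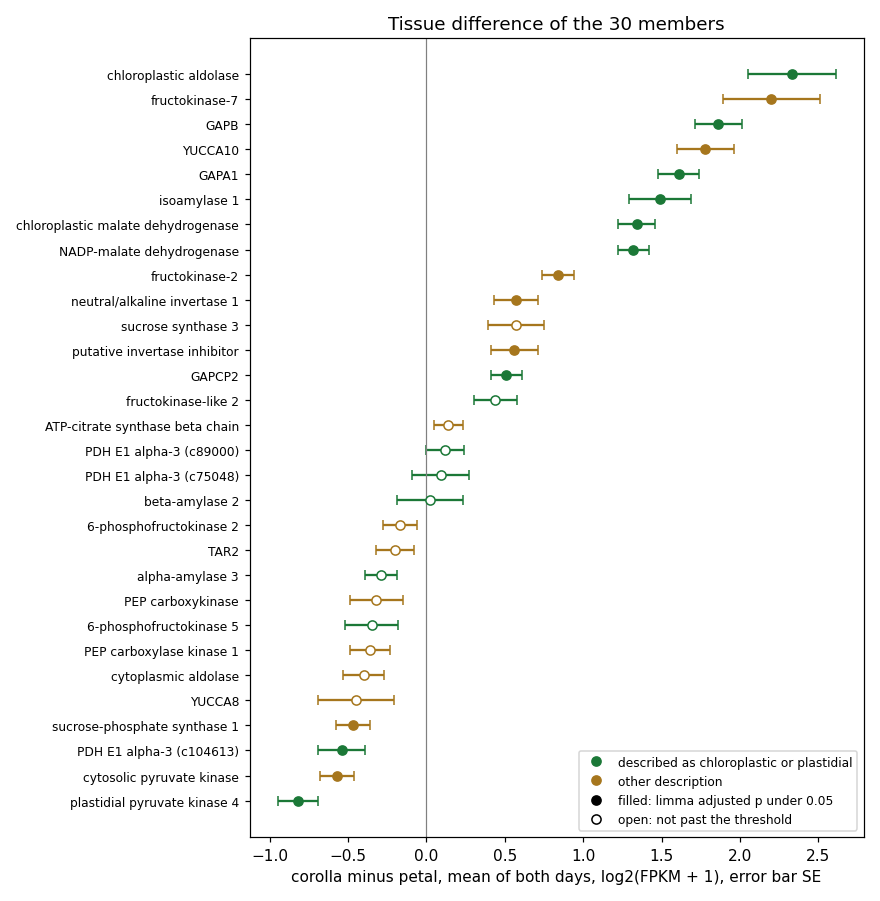
Corolla minus petal, mean of both days, on the log2(FPKM + 1) scale (horizontal axis) for the 30 members in order of size, with error bars of 1 SE from limma over 8 libraries. Filled points passed an adjusted p of 0.05 and colours mark a chloroplastic or plastidial description; chloroplastic aldolase stands highest at 2.33 and plastidial pyruvate kinase 4 lowest at -0.82.

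Other genes of the pathways were collected by a further word list, which gave 20 described genes that are not members. For respiration these held cytochrome c oxidase subunits 1 (c75697.graph_c1), 2 (c36976.graph_c0) and 3 (c77408.graph_c0), called by the authors in petal. The subunits were at 0 FPKM in every day 1 library and at 0.4 to 5.25 FPKM on day 7. Of the 20, 8 were higher in corolla than in petal, 4 lower and 8 did not pass (60%, against 56.8% of all called genes, median 0.26). Of the 8 higher, 3, all SWEET sugar transporters, reached the filter through corolla alone. Also among the 8 higher were ATP synthase subunits c103697.graph_c1 and c83215.graph_c0, described as chloroplastic rather than mitochondrial. Of 15 in the corolla table, 12 could be tested in petal, where 1 rose and 5 fell (50%, against 52.6% of that table). Of 8 in the petal table, 6 could be tested in corolla, where 1 rose and 3 fell (66.7%, against 73.9% of that table). Among the fallers in both tests were c100590.graph_c0 and sugar transport protein 13 (c101676.graph_c0), which the authors had called in both tissues. The tests of such genes repeat contrasts that had chosen them. The riser in both, which the authors had called in both tissues, was trehalose-phosphate synthase 5 (c102251.graph_c0), of a family tied to sugar sensing, with 53.35 and 41.78 FPKM in corolla on day 7, against 16.62 and 17.4 on day 1, and 80.97 and 81.94 FPKM in petal on day 7, against 28.06 and 33.48 on day 1.

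Starch synthesis appeared here through ADP-glucose pyrophosphorylase, its committed step, whose subunits went in different directions. A small subunit gene (c100590.graph_c0), called by the authors in both tissues, had 2.81 and 1.97 FPKM in corolla on day 7, against 36.19 and 25.02 on day 1, and 2.06 and 3.7 FPKM in petal on day 7, against 20.5 and 13.45 on day 1. A further small subunit gene (c85482.graph_c0) was also lower on day 7 in every library, with 0 to 1.05 FPKM on day 7, against 4.95 to 19.36 FPKM on day 1. The large subunit gene (c83561.graph_c0), called in petal, was weak and higher on day 7, with 5.74 and 7.25 FPKM in petal, against 1.05 and 1.1 on day 1. Corolla had 1.4 and 2.04 FPKM of it on day 7, against 0.39 and 0.71 on day 1, a difference that did not pass (log2 0.81, limma adjusted p = 0.113).

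SWEET13 (c96588.graph_c0), a sugar transporter, had 2.15 and 2.28 FPKM in corolla and 0.27 and 0 FPKM in petal on day 7, and 29.06 and 24.96 FPKM in corolla and 0.31 and 0.13 FPKM in petal on day 1. Every corolla library was above every petal library, and all petal values were under 1 FPKM. Plastid phosphoglycerate kinase (c103748.graph_c0), which follows GAPDH in the pathway, was higher in corolla (1.24, limma adjusted p = 0.000195). It had 36.79 and 34.07 FPKM in corolla and 14.98 and 21.46 FPKM in petal on day 7. On day 1 it had 83.34 and 86.12 FPKM in corolla and 28.81 and 27.89 FPKM in petal. Among the 4 genes lower in corolla were sugar transport protein 13 (c101676.graph_c0; -1.88, limma adjusted p = 0.000337) and trehalose-phosphate synthase 5 (-0.79, limma adjusted p = 0.00125). Sugar transport protein 13 had 70.88 and 45.07 FPKM in corolla and 226.2 and 145.04 FPKM in petal on day 1.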

How the data were processed

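Poly-A RNA was sequenced on an Illumina system and assembled de novo, per the labels; the submitters' processing notes name Bowtie and RSEM, without versions. For each tissue the authors deposited FPKM of all genes, with an FDR (an adjusted p-value) and a log2 fold change, and read counts of the genes they called, per the file headers; from the values, calls have an FDR under 0.01 with a change of 2-fold or more. Counts were used only for depth and scale, since the full tables hold FPKM.

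limma 3.58.1 in R 4.3.3 was fitted with a variance trend on log2(FPKM + 1), for each tissue alone and for all 8 libraries over the genes in both tables, with Benjamini-Hochberg adjustment over all genes with at least 1 FPKM in 2 of the libraries fitted. Fold changes on this scale understate the change of weak genes. edgeR 4.0.16 gave TMM factors for an alternative scaling. The fits were tested on simulated data. pandas 2.3.3, numpy 2.4.6 and matplotlib 3.10.9 served for tables and plots.

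Members and lists were chosen with earlier results of these data known. Members were named as the 3 most abundant per role and up to 8 with the largest change among those passing each test; the other members were added after their values were seen, so that all could be described. From the further word list, 2 of 22 matches were dropped because only a species name matched. Alternatives were another pseudocount, filter, scaling and fit, repeats as a block and each library left out. Counts of 0 FPKM mean only that a gene is listed at 0.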

Additional observations from a re-analysis of the deposited data

How the results depend on the processing

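The count of genes passing between days over all genes was 4820 in corolla and 2384 in petal. With no filter on low FPKM these were 2452 and 452, and with all 8 libraries in 1 fit petal gave 3921. Leaving out each library gave 0 to 2932 in corolla and 0 to 2164 in petal; such a fit assumes that the lone library varies like the other group. The limma count was 0 in corolla without day 1 repeat 1 or repeat 2, with 5139 and 5551 genes at an unadjusted p below 0.05. In petal it was 0 without day 7 repeat 1, day 1 repeat 1 or day 1 repeat 2, with 6603, 3186 and 3594 such genes. Between tissues the count was 5834, and 3735 to 6010 with a library left out. Of the members, 12 passed in petal, 4 with no filter and 0 to 10 with a library left out. In corolla 7 passed, and 0 to 7 with a library left out. Between tissues 16 passed, and 12 to 20 under all alternatives. For the filter and the joint fit, the number of genes tested and the number of libraries changed by construction; the cause of the other shifts was not tested.

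Directions were checked for all 30 members between tissues, for 25 in petal between days and for 9 in corolla between days. They held under the alternatives run, with these exceptions. In petal between days the direction changed for PEP carboxylase kinase 1 (c101715.graph_c1, -0.10 to 0.34 with a library left out, against 0.12). It also changed there for 6-phosphofructokinase 5 (c106422.graph_c0, -0.23 to 0.48, against 0.13). Between tissues it changed for beta-amylase 2 (c98049.graph_c0, -0.10 with a pseudocount of 0.1, and -0.04 to 0.07 with a library left out, against 0.02). The same held between tissues for pyruvate dehydrogenase c75048.graph_c0 (-0.05 to 0.23 with a library left out, against 0.09).

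Repeat numbers were not taken to pair libraries: deviations of same-numbered repeats correlated at 0.379 between corolla and petal on day 7 and 0.195 on day 1, and at -0.011 to 0.002 between days, over 21936 genes. Among the 13238 better expressed genes (mean of 5 FPKM or more) the same-day values were 0.586 on day 7 and 0.394 on day 1. With only these 2 same-day pairs, a shared origin is not established. With the replicate block 3403 genes passed in corolla, 2288 in petal and 5755 between tissues, and 7, 13 and 17 members in the same order; a block within each day, added after the data were seen, gave 6182 genes and 19 members between tissues. Total depth is not given by these tables, and members under about 1 FPKM rest on few reads.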
